A study of Mus musculus with 18 samples.

Results

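Proteasome and immunoproteasome genes were taken as all genes whose symbol begins with Psm, a letter from a to g and a number, on probe sets annotated with 1 gene symbol. They were 50 of the 19752 genes measured. Of these, 48 encode proteasome subunits, activators, assembly chaperones or the inhibitor. The other 2 match the pattern in name only: Psmc3ip is a recombination factor of meiosis and Psme3ip1 a partner protein of the activator Psme3. Among the 48 were 5 immune subunits (Psmb8, Psmb9, Psmb10, Psme1 and Psme2), 3 standard catalytic subunits (Psmb5, Psmb6 and Psmb7), 7 alpha ring subunits, 4 other beta ring subunits, 6 ATPases and 11 further subunits of the regulatory particle, 7 assembly chaperones, 3 other activators or inhibitors and 2 tissue-specific forms. The rule reads symbols only and no measured value.

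The proteasome is the barrel-shaped protease that degrades ubiquitin-tagged proteins. Its core is built of outer alpha rings and inner beta rings, and 3 of the beta subunits cut peptide bonds. A regulatory particle of ATPases and other subunits binds the tagged protein, unfolds it and feeds it in. Interferon gamma (IFNg) is known to induce Psmb9, Psmb10 and Psmb8, which replace Psmb6, Psmb7 and Psmb5 in newly built cores to make the immunoproteasome, and also Psme1 and Psme2, which form an alternative cap. Peptides made in this way are loaded on MHC class I in the endoplasmic reticulum. The immunoproteasome is known to be abundant in blood cells even without an added cytokine.

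Expression was measured on 18 arrays (Affymetrix Mouse Gene 1.0 ST), 2 for each of 9 populations sorted by FACS from male B6 (C57BL/6) mice, 6 weeks old. All of the mice had received 10000 U of IFNg subcutaneously 2 h earlier, so every group shares this treatment. Spleen gave dendritic cells (DC; CD11c+ MHCII+ Flt3+), granulocytes (GN; Ly6G+), NK cells (NK; NK1.1+ TCRB-), NKT cells (NKT; NK1.1+ TCRB+), CD4 T cells (T4; CD4+ TCRB+), CD8 T cells (T8; CD8+ TCRB+), gamma delta T cells (Tgd; TCRgd+ TCRB-) and regulatory T cells (Treg; CD4+ TCRB+ CD25+). The gate given for T4 names no CD25 exclusion. Macrophages (MF; F4/80+ ICAM2+) were sorted from the peritoneal cavity, so that for MF tissue and cell type cannot be told apart. No untreated mice are part of the values below, which say how populations of treated mice differed, not how far a gene responded to IFNg. The labels do not say whether a population's arrays hold separate mice. The p-values therefore speak of array-to-array spread, part of which can be technical.

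The median intensity lay between 138.5 and 151 on every array. Pearson's r over all probe sets was between 0.9901 and 0.996 within a population and between 0.8264 and 0.9909 across populations. Markers fitted the labels for DC (8 of 8 higher than in the other populations), GN (12 of 12), MF (9 of 9), NK (7 of 7), NKT (5 of 5), T4 (5 of 5), T8 (4 of 4) and Treg (6 of 6). The lists of related T cell populations overlapped. The T4 markers were also higher in Treg (5 of 5), and Treg markers in T4 (4 of 6) and NKT (4 of 6). Of the 5 T4 markers 4 were also higher in each of NKT, T8 and Tgd, with 1 lower in T8 and 1 in Tgd. The T4 list thus does not tell T4 from Treg, and most of it is shared with the other T cell populations. For Tgd, 1 of 6 markers was measured, Sox13, and it did not pass, with a log2 difference of 0.75. All 12 granulocyte markers were also higher in DC, and on DC array 2 all 12 lay at least 1 log2 unit above DC array 1, with a median of 1.92. Their summed log2 intensity was 13.09 and 14.91 on the DC arrays, 16.48 and 16.65 on the GN arrays, and between 9.54 and 11.36 on the others. B cell markers were higher in DC (4 of 6) and Tgd (3 of 6). Red pulp macrophage markers were higher in DC too (6 of 7, 0 lower), with sums of 12.02 and 13.05 on DC arrays 1 and 2. The number of arrays limits the precision, and levels of different probe sets are not set against each other.

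Across the 9 populations Psmb8, Psmb9, Psme1 and Psme2 took other orders than most of the proteasome. The immune subunit Psmb10 had its lowest mean in GN, like the standard catalytic subunits. Psmb9 and Psmb8 were highest in GN, whereas 31 of the 48 genes had their lowest mean there, all 3 standard catalytic subunits among them. In MF, 22 of the 48 had their highest mean, while Psmb8 and Psme1 were at their lowest. Psmb9 and Psme2 were lowest in NK, and Psmb10 varied least of the 5 immune subunits. In limma's moderated F test over the 9 populations, passing required an adjusted p under 0.05 together with population means that spanned 2-fold or more. On this rule 27 of the 50 members passed, against 39.0% of all genes and 60.3% of bright genes (highest population mean above the median of all values, 7.19 on the log2 scale), of which 47 members were part. The share of members is thus between those of all genes and of bright genes. By adjusted p alone 41 members passed, against 69.3% of all genes.

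**Figure D1:**
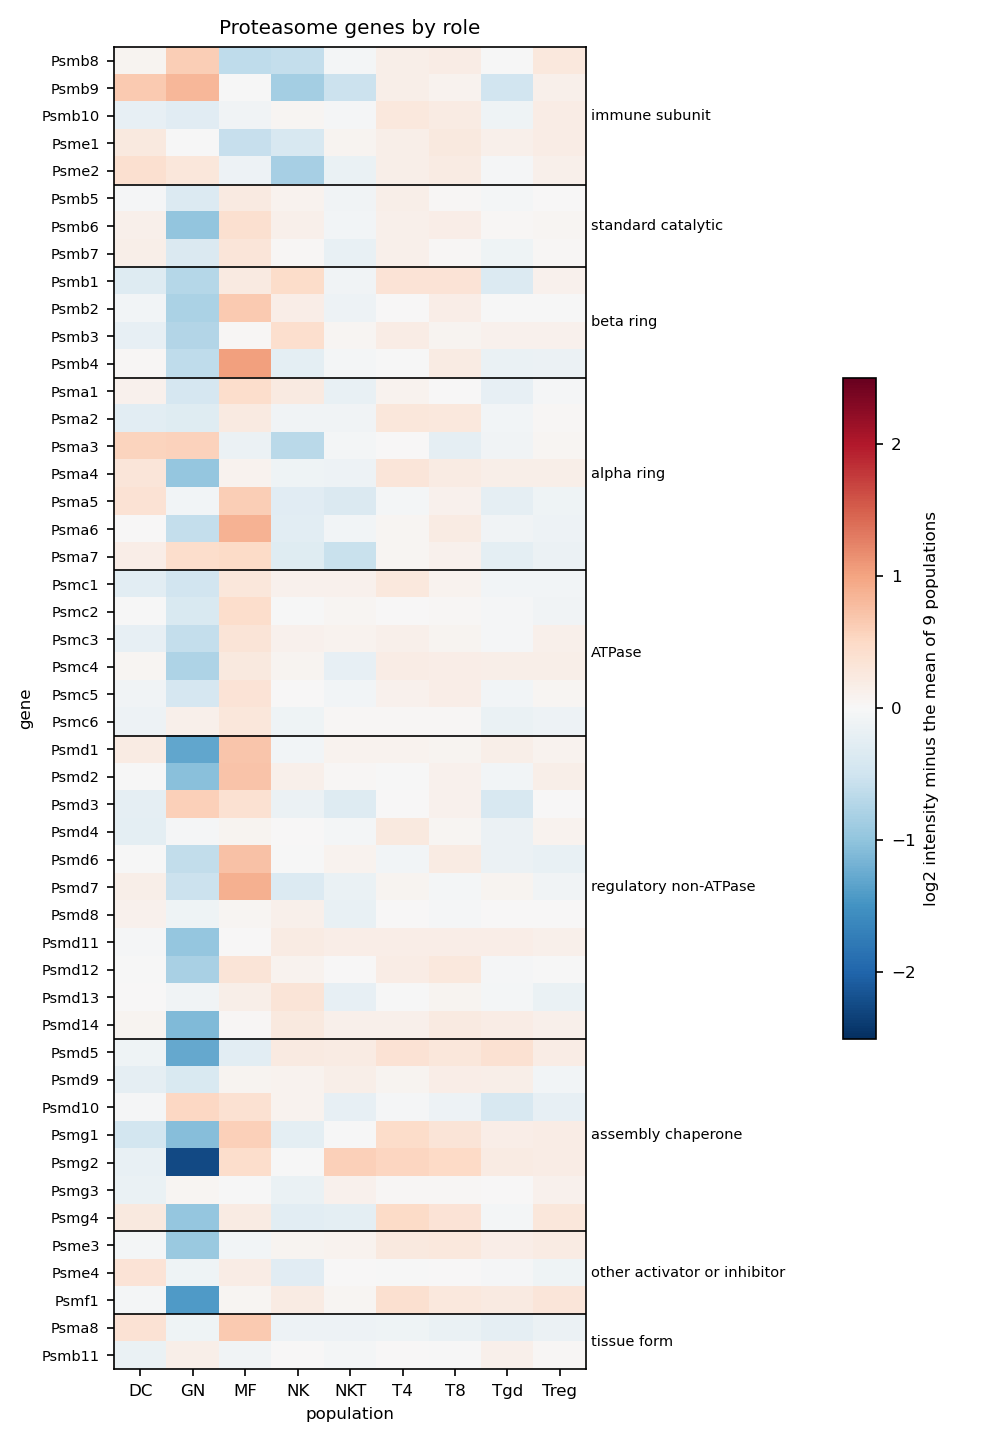
Mean log2 intensity of each of 48 proteasome genes (rows, grouped by role) in 9 populations (columns, 2 arrays each), minus that gene's mean over the 9 populations; red is above and blue below that mean. Blue prevails in the GN column outside the immune subunits, with Psmg2 the darkest cell, and red in the MF column.

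Shares of all genes put these extremes in context. On the deposited scale 20.8% of all genes had their lowest mean in GN and 14.7% their highest in MF, and of bright genes 32.1% and 20.7%. The counts move with the scaling of the arrays: with the 75th percentile of each array set equal, an alternative chosen after seeing the data, 22 of the 48 were lowest in GN and 17 highest in MF, and with quantile normalization 29 and 16. Shares of all genes are not given for these scalings and can differ from those above, so these counts have no like share beside them. That percentile was lower on the GN arrays (8.48 and 8.42) than on the other 16, where it lay between 8.69 and 8.91.

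Psmb9 is the immune subunit that takes the place of Psmb6. Its log2 intensity was 11.23 and 11.16 on the GN arrays and 10.97 and 11.09 on the DC arrays, and the highest array of any other population was a T8 array at 10.69. The T cell and macrophage arrays in the middle read 10.49 and 10.55 in T4, 10.61 and 10.39 in Treg, 10.69 and 10.25 in T8, and 10.48 and 10.23 in MF. Tgd (10.03 and 9.76), NKT (9.77 and 9.89) and NK (9.74 and 9.31) were low, and their arrays lay below all 12 others. The range of population means was 1.67, 3.18-fold (adjusted p = 3.68e-07). In the order of means DC was not separated from GN (difference 0.16 ± 0.16 SE, adjusted p = 0.371), the drop from DC to T4 was 0.51 ± 0.16 (adjusted p = 0.0172), and the drop from MF to Tgd 0.46 ± 0.16 (adjusted p = 0.0265). T4, Treg, T8 and MF did not differ between neighbours, nor did Tgd, NKT and NK. Of the 36 pairs of populations 6 passed, GN and DC each against NK, NKT and Tgd, while 15.8% of pairwise tests passed over all bright genes. Granulocyte markers were a median of 1.92 higher on DC array 2 than on DC array 1. Psmb9 read 10.97 on array 1 and 11.09 on array 2. The part of granulocyte signal in the DC values was not tested.

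Psmb8, the counterpart of Psmb5, was highest in GN and low in NK, as Psmb9 was. The genes differed in MF, which was low for Psmb8 only, and in DC, which was high for Psmb9 only. Psmb8 read 10.88 and 10.77 in GN, above the arrays of every other population. MF (9.65 and 9.49) and NK (9.66 and 9.55) lay below all others, and the remaining 6 populations spanned 10.05 to 10.49. The range was 1.26, 2.39-fold (adjusted p = 1.49e-07). GN stood 0.36 ± 0.11 above Treg, the next in order (adjusted p = 0.00972), and NKT 0.55 ± 0.11 above NK (adjusted p = 0.00154), whereas Treg, T8, T4, DC, Tgd and NKT did not differ between neighbours, nor did NK and MF. The 2 pairs past the test were GN against MF and GN against NK. Psmb8 and Psmb9 lie on chromosome 17 beside the peptide transporter genes, in the RefSeq order Psmb9, Tap1, Psmb8, Tap2.

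Psme2 and Psme1 encode the beta and alpha chains of the cap and are neighbours on chromosome 14. Psme2 read 11.85 and 11.75 in DC and 11.64 and 11.73 in GN. It was lowest in NK at 10.81 and 10.31, below the other 16 arrays, the lowest of which was an NKT array at 11.11. The range was 1.24 (adjusted p = 1.73e-05), and 3 pairs passed, NK against DC, GN and T8. Without NK replicate 3 the range was 0.99, under 2-fold, and none of the 36 pairs passed. Psme1 ranged less, over 0.83 (adjusted p = 1.43e-06), below 2-fold. Its MF arrays (10.42 and 10.39) and NK arrays (10.67 and 10.49) lay below the other 14, which spanned 10.91 to 11.32, and GN stood 0.39 ± 0.09 above NK (adjusted p = 0.00188). No pair passed for Psme1 in limma's test because none reached 2-fold, although 16 of 36 had an adjusted p under 0.05 and 16 an unadjusted one. Over all bright genes 15.8% of the tests between 2 populations passed and 40.5% had an adjusted p under 0.05.

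Psmb10, the counterpart of Psmb7, was the flattest immune subunit. Its means ran from 11.65 ± 0.28 (SD, n = 2) in T4 down to 11.09 ± 0.09 in GN and thus spanned 0.56 (adjusted p = 0.0505), and no neighbours in that order differed. The 2 Tgd arrays read 11.59 and 10.98, further apart than the highest and the lowest population mean. None of the 36 pairs passed, with 4 at an adjusted and 9 at an unadjusted p under 0.05. Across the 9 means its Pearson correlation was 0.59 with Psmb5 and -0.33 with Psmb9. The correlation with Psmb9 was 0.86 for Psme2, 0.67 for Psmb8 and 0.37 for Psme1. All of these are descriptions over points that share arrays.

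**Figure D2:**
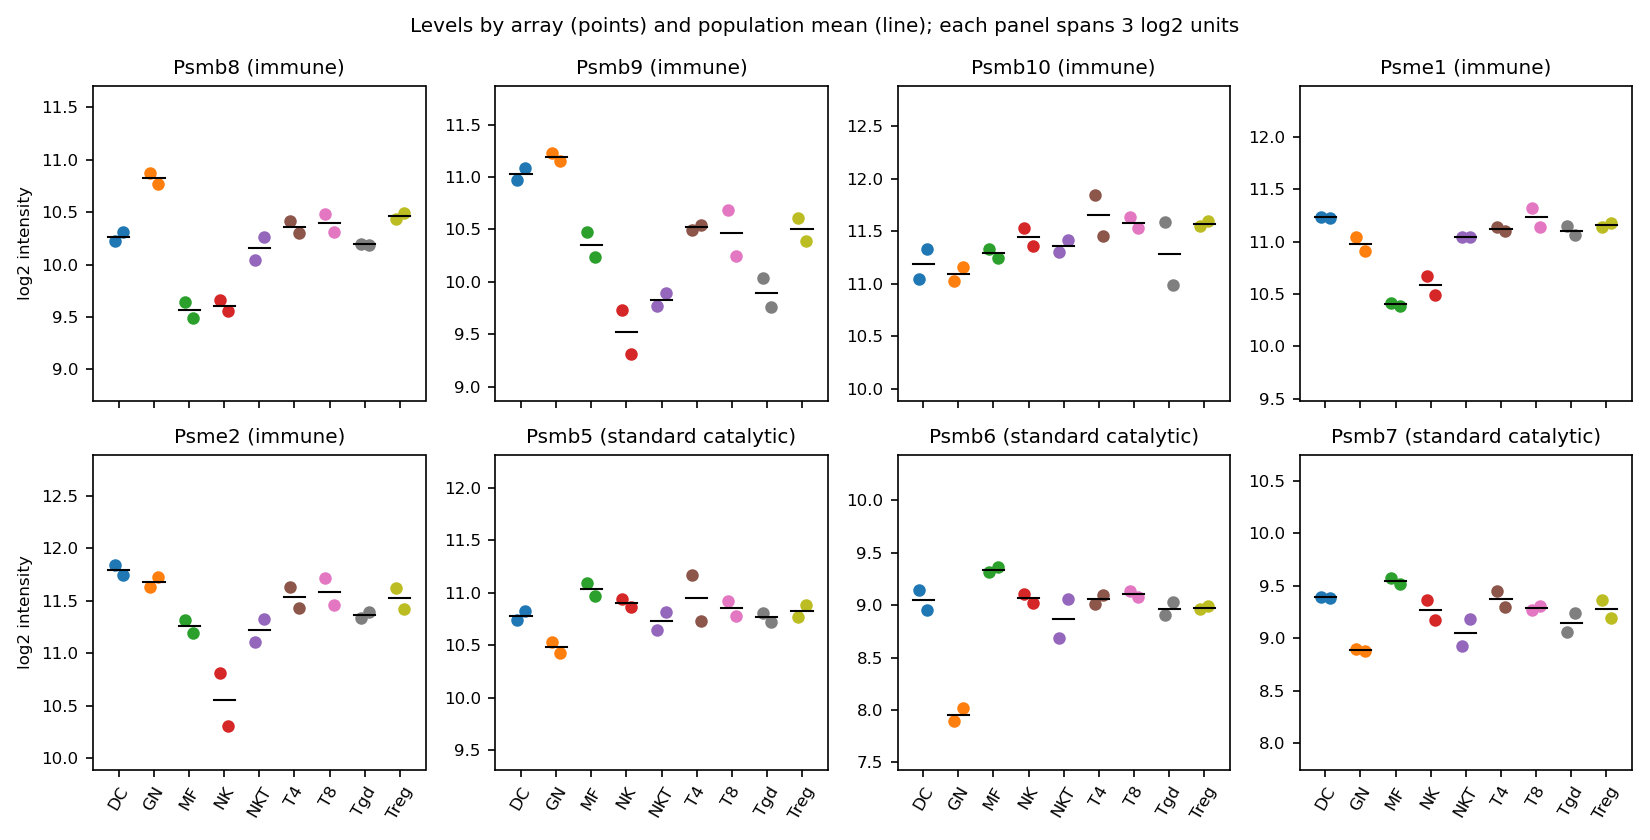
Log2 intensity of the 5 immune and 3 standard catalytic subunits on each of the 18 arrays (points) with the mean of the 2 arrays of a population (line); each panel spans 3 log2 units and has its own level. Psmb9 is highest in GN and DC and lowest in NK, Psmb8 lowest in MF and NK, and Psmb6 lies near 8 in GN and near 9 elsewhere.

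In GN and MF the standard subunits ran the other way from Psmb8. Psmb6 read 7.90 and 8.02 on the GN arrays, below all others, and 9.32 and 9.37 on the MF arrays, above all others. The other 7 populations spanned 8.68 to 9.14. The range was 1.39 (adjusted p = 1.57e-06), and GN lay 0.92 ± 0.12 below NKT, the next lowest (adjusted p = 5.98e-06), while no other neighbours differed. With quantile normalization the range of Psmb6 was 0.97 and with equal 75th percentiles 0.94, under 2-fold. Psmb7 ranged over 0.66 (adjusted p = 0.00347), from 8.90 and 8.88 in GN to 9.57 and 9.52 in MF. Psmb5 ranged over 0.55 (adjusted p = 0.0303), from 10.54 and 10.43 in GN to 11.09 and 10.97 in MF, with a T4 array at 11.17. For Psmb5 and Psmb7 no neighbours in the order differed, and none of the 36 pairs passed, with 6 and 9 at an adjusted p under 0.05 and 9 and 14 at an unadjusted one. All 3 lay below the mean of the other 8 populations in GN under each scaling tried, Psmb5 by as little as -0.04 and Psmb7 by -0.07 with equal 75th percentiles.

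Promoter sequences of 4 of these genes are shown because Psmb8 and Psmb9 took another order over the populations than Psmb5 and Psmb6. They come from RefSeq (GRCm38.p6), run 5′ to 3′ on the gene's strand, and end at the last base before the annotated start, 200 bases each. For Psmb6 the last 33 of those bases are annotated as gene and left out, which leaves 167. Capitals mark matches, on either strand, to 2 interferon-related motifs: the core of the interferon-stimulated response element (GAAA, any 2 bases, GAAA) and the shorter IRF core (AANNGAAA), which can overlap it.
Psmb8 (chr17:34197995-34198194, plus strand): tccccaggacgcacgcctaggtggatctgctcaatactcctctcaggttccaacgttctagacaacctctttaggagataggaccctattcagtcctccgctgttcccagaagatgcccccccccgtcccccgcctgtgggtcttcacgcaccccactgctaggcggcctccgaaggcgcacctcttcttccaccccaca
Psmb9 (chr17:34187331-34187530, minus strand): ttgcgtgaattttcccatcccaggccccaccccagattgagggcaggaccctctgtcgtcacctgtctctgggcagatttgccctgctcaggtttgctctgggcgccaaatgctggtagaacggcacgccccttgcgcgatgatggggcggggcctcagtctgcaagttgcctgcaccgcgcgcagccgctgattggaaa
Psmb5 (chr14:54617996-54618195, minus strand): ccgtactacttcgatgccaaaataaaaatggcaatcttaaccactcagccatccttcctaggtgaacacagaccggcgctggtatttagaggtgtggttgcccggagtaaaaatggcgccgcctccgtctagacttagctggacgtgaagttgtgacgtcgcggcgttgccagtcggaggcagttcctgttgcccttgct
Psmb6 (chr11:70525157-70525323, plus strand): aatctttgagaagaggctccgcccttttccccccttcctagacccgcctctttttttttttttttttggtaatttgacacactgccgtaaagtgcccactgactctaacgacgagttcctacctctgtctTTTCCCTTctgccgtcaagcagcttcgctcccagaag
The match in Psmb6 is an IRF core, 70 to 63 bases before the start, and neither motif was found in the stretches shown for Psmb8, Psmb9 and Psmb5. The table held promoters of 42 of the 50 members, and each promoter was searched over the 200 bases before the start only. Response element cores were found in Psmb3, Psmd4 and Psmd9 (2.27% of 32851 promoters) and IRF cores in 9 members (17% of all). Of another kind is the antioxidant response element (TGACNNNGC), which the stress factors Nfe2l1 and Nfe2l2 bind in proteasome promoters. It was found in Psmb5, Psmb6 and Psmd9 and in 8.6% of all promoters. In Psmb6 this element lies 9 to 1 bases before the start, within the bases annotated as gene and left out above. The motifs were picked while these promoters were being read, a match is a description of letters, and no match says only that the letters are not in this window.

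Each immune subunit was then set against the standard subunit it replaces, within each array. Only changes of this log2 difference between populations can be read, since its level depends on the probes, and it is given here relative to its mean over the 9 populations. Psmb9 minus Psmb6 spanned 2.78, 6.88-fold, from -0.98 in NK to 1.80 in GN, with DC next at 0.55 and the rest between -0.51 and 0.09. Psmb8 minus Psmb5 spanned 1.81, 3.50-fold, with GN at 0.95, MF at -0.85, NK at -0.69 and the other 6 between 0.02 and 0.25. Psmb10 minus Psmb7 spanned 0.56, from -0.39 in MF and -0.34 in DC to 0.17 in NKT. GN thus stood highest for the first and second of these and in the middle for the third, while the low end was NK for the first and MF for the others.

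None of these differences separated myeloid from lymphoid populations after adjustment. The 3 myeloid population means (DC, GN and MF) were compared with the 6 lymphoid ones by an exact two-sided permutation test over 84 splits, which cannot give a p below 0.0119, adjusted over the 3 pairs. The myeloid minus lymphoid value was 0.96 for Psmb9 minus Psmb6 (exact permutation, p = 0.0595, adjusted p = 0.0893). It was -0.33 for Psmb10 minus Psmb7 (exact permutation, p = 0.0357, adjusted p = 0.0893) and 0.10 for Psmb8 minus Psmb5 (exact permutation, p = 0.917). With quantile normalization, which does not keep differences within an array, the value for Psmb10 minus Psmb7 was -0.57 (exact permutation, adjusted p = 0.0357), and it passed without GN replicate 2 too, at -0.36 (exact permutation, adjusted p = 0.0357).

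**Figure D3:**
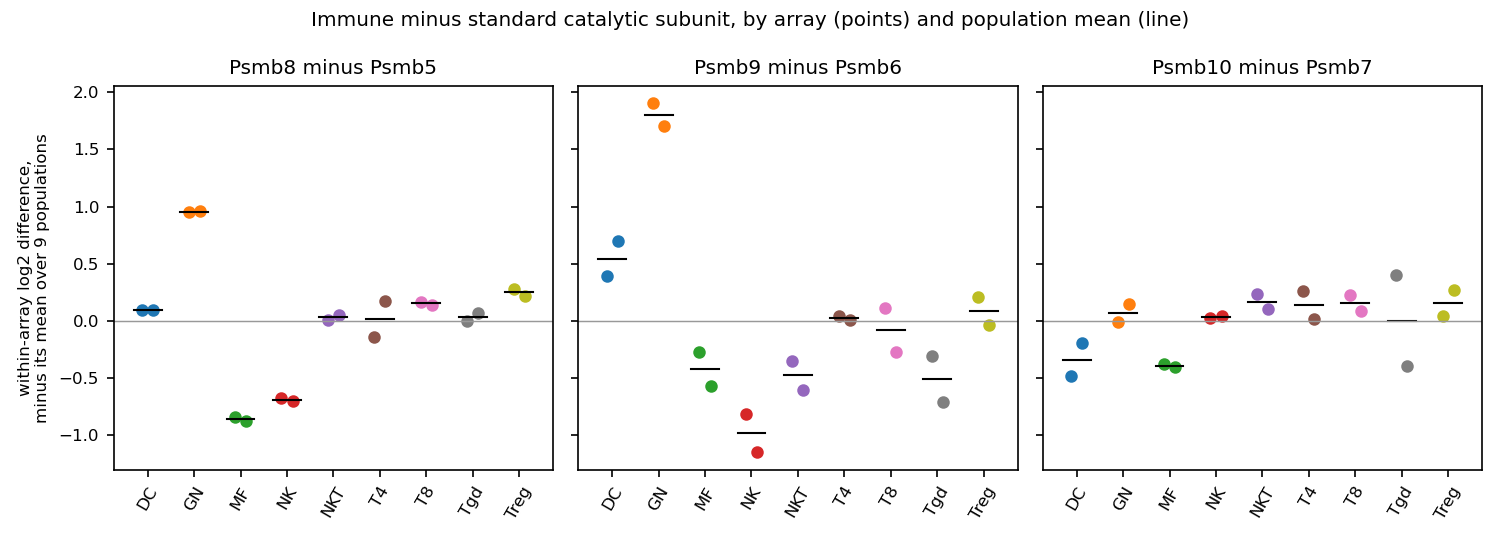
Within-array log2 difference of each immune subunit and the standard subunit it replaces, minus its mean over the 9 populations, on each of the 18 arrays (points) with population means (lines). GN stands highest for Psmb9 minus Psmb6 (1.80) and Psmb8 minus Psmb5 (0.95), while Psmb10 minus Psmb7 stays between -0.39 and 0.17 by population mean.

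Among the other core subunits, beta ring genes were lowest in GN, and alpha ring genes divided. All 4 beta ring genes passed over the 9 populations, where 39.0% of all genes and 60.3% of bright genes did. Psmb4 read 10.61 and 10.50 in MF, above the other 16 arrays, which spanned 8.80 to 10.03, and was lowest in GN (range 1.67, adjusted p = 0.000926). Psmb2 read 11.59 and 11.39 in MF and 9.99 and 10.09 in GN (range 1.45, adjusted p = 1.69e-07). These GN and MF arrays of Psmb2 lay outside all others. Psmb3 and Psmb1 had their highest means in NK, at 12.67 and 10.02, and their lowest in GN.

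Of the 7 alpha ring genes 4 passed, near the share of bright genes (60.3%). Psma6 followed the beta ring, from 10.79 and 10.57 in MF to 9.11 and 9.29 in GN (range 1.48, adjusted p = 0.00236), though an NK array at 9.08 was lower still. Psma4 was lowest in GN (9.07 and 8.73) and had its highest mean in DC (10.19 and 10.16), though a T4 array read 10.23. Psma3 did the opposite: it read 11.09 and 11.18 in GN and 11.11 and 11.09 in DC, above all other arrays, and 10.11 and 9.64 in NK (range 1.26, adjusted p = 1.68e-05). Its 9 means had a Pearson correlation of 0.88 with those of Psmb9, above that of any other member, Psme2 included (0.86). Psma3 has 3 probe sets with this single symbol, all highest in GN and lowest in NK, and the other probe sets correlated with the one used at 0.9987 or more. They may read near-identical copies and do not count as separate support. Psma7 had its lowest mean in NKT, 8.26, and its highest in MF, 9.28 (range 1.03).

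The regulatory particle held the widest ranges among subunits. Psmd1, a scaffold subunit of its base, read 10.39 and 10.38 in MF and 8.35 and 8.43 in GN, and the other 7 populations spanned 9.45 to 10.02 (range 1.99, adjusted p = 6.40e-07). Psmd2, the other scaffold, ran from 10.79 and 10.57 in MF to 8.98 and 8.87 in GN (range 1.76, adjusted p = 3.30e-06). In both genes the MF and GN arrays lay outside all others. Among the lid subunits Psmd7 and Psmd6 were highest in MF and lowest in GN (ranges 1.41 and 1.36), while Psmd14, the deubiquitinase that strips ubiquitin from substrates, had its highest mean in NK (11.03) and a low GN mean of 9.67 ± 0.36 (range 1.36). Psmd3 stood apart, since its mean peaked in GN (9.62) and was lowest in Tgd (8.61). In all, 8 of the 11 passed, and of the 6 ATPases 1 did, Psmc4, with a range of 1.03. Of all genes 39.0% passed and of bright genes 60.3%, and the roles were not tested against each other. The 6 ATPases all had their highest mean in MF and 5 of them their lowest in GN, with ranges between 0.45 and 1.03.

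Of the 4 dedicated core chaperones, which help assemble the alpha ring, Psmg2 varied more than any other member. It read 6.53 and 6.24 on the GN arrays and between 8.46 and 9.36 on the other 16, a range of 2.85 or 7.22-fold (adjusted p = 5.52e-11). DC (8.46 on both arrays) was the next lowest. Its partner Psmg1 read 7.01 and 6.91 in GN and 8.68 and 8.57 in MF (range 1.66, adjusted p = 1.57e-07), with DC again second lowest at 7.56 on both arrays. Psmg4 was lowest in GN (7.39 and 7.59) and highest in T4 (9.14 and 8.76), with a range of 1.46 (adjusted p = 5.29e-06). Psmg3 was nearly flat, with a range of 0.29 (adjusted p = 0.171). Of the chaperones of the regulatory particle, Psmd5 read 7.81 and 7.71 in GN and at least 8.77 elsewhere (range 1.66, adjusted p = 8.13e-08), Psmd10 was highest in GN at 9.76 ± 0.08 (range 0.92, adjusted p = 0.00103) and Psmd9 was lowest in GN (range 0.55, adjusted p = 0.00563).

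The remaining activators and the inhibitor did not share one order. Psmf1, a proteasome inhibitor, read 8.25 and 8.35 in GN and between 9.66 and 10.19 elsewhere (range 1.81, adjusted p = 2.46e-08). Psme3, the nuclear relative of Psme1 and Psme2, read 9.64 and 9.72 in GN and between 10.51 and 10.94 elsewhere (range 1.20, adjusted p = 5.05e-07). GN did not overlap the other populations for either gene, and no share of all genes is given for this. Psme4, a nuclear activator, ranged over 0.63, from 9.75 ± 0.28 in NK to 10.38 ± 0.05 in DC (adjusted p = 0.0306). The forms of other tissues were dim: Psmb11 of the thymus lay between 6.83 and 7.24 on every array (range 0.30), and Psma8 of the testis between 5.41 and 6.50, with its highest mean in MF at 6.36 (range 0.89, adjusted p = 2.85e-05). The 5 flattest of the remaining members were Psmd8, Psmc6, Psmd4, Psmd13 and Psmd9, with ranges of 0.32, 0.45, 0.49, 0.53 and 0.55. Psmc3ip and Psme3ip1 ranged over 0.35 and 0.36 and did not pass.

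Against the mean of the other 8 populations, GN was lower for 12 members and higher for none. The 12 were Psmg2 (log2 difference -2.55 ± 0.10 SE, adjusted p = 4.97e-13), Psmf1 (-1.59 ± 0.10, adjusted p = 1.32e-10), Psmd1 (-1.46 ± 0.12), Psmd5 (-1.43 ± 0.10), Psmd14 (-1.25 ± 0.09), Psmg1 (-1.19 ± 0.11), and, between -1.05 and -1.17, Psmd2, Psmb6, Psmd11, Psmg4, Psma4 and Psme3. On all of these genes both GN arrays lay below the other 16. They were picked by their low GN mean, and no share of all genes with such a gap is given, so this only describes them. Of all genes 11.7% were lower and 7.03% higher in GN on this rule, and of bright genes 18.8% and 11.0%. By limma's adjusted p alone 31 members were lower and 7 higher, the same numbers as at an unadjusted p under 0.05, against 27.9% of all genes lower and 37.8% higher. The 7 were Psmb9 (0.93 ± 0.12, adjusted p = 2.12e-06), Psmb8 (0.70 ± 0.08, adjusted p = 6.56e-07), Psmd3 (0.68 ± 0.09), Psma3 (0.65 ± 0.11), Psmd10 (0.59 ± 0.12), Psma7 (0.50 ± 0.11) and Psme2 (0.33 ± 0.11), all below 2-fold. The median of the members was -0.46 and that of all genes 0.13.

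The GN calls depended on how arrays were scaled. With quantile normalization 8 members were lower and 0 higher, where 2049 of the 19752 genes were lower and 1415 higher. With equal medians 12 members were lower and 0 higher, against 2242 and 1417 of all genes. With equal 75th percentiles the median of all genes in GN was 0.46 and that of the members -0.12. Then 4 were lower (Psmd1, Psmd5, Psmf1 and Psmg2) and 3 higher (Psmb8 at 1.04, Psmb9 at 1.27 and Psmd3 at 1.02). Of the 19752 genes 1486 were then lower and 1977 higher, so the member counts were near the background. The share of all GN calls that were higher went from 37.5% to 57.1%. Psmg2, Psmf1, Psmd1 and Psmd5 were lower, and Psmb8 and Psmb9 above 0, under every scaling tried, whereas Psmb10, Psme1, Psme4, Psma2, Psma5, Psma8, Psmc3ip, Psmd4, Psmd8 and Psmd13 changed sign. Leaving out GN replicate 1 ended the calls of Psmd14 and Psmg4, and leaving out GN replicate 2 that of Psma4.

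**Figure D4:**
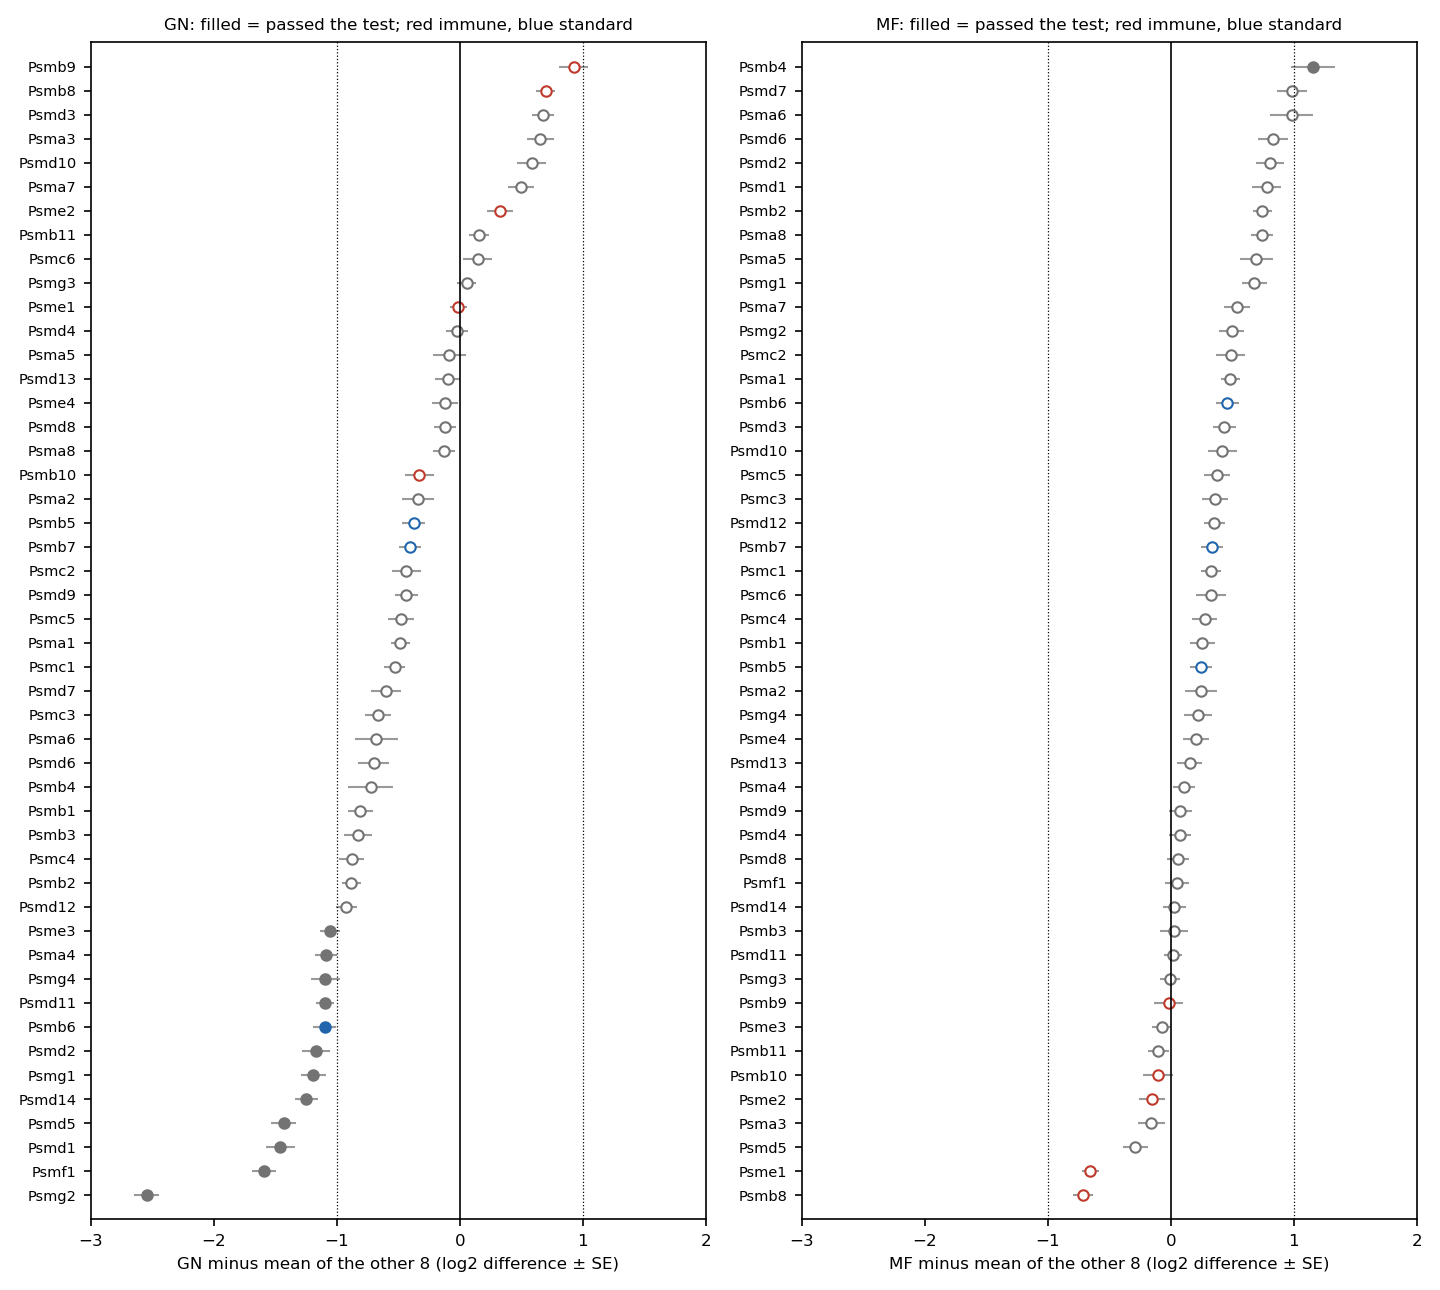
Log2 difference of GN (left) and MF (right) from the mean of the other 8 populations for 48 proteasome genes, sorted by size, with its standard error from limma; filled points passed the test (12 in GN and 1 in MF), dotted lines mark 2-fold, red is immune and blue standard catalytic. On the deposited scale the red points Psmb9 and Psmb8 lead in GN, and Psme1 and Psmb8 are last in MF.

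In MF, the peritoneal population, Psmb4 was the 1 member past the test, higher than the mean of the other 8 by 1.16 ± 0.18 (adjusted p = 3.76e-05), against 7.56% of all genes higher and 4.19% lower. It was 1.00 with equal 75th percentiles, just under 2-fold. Next, below 2-fold, came Psmd7 (0.99 ± 0.12), Psma6 (0.99 ± 0.17), Psmd6 (0.83 ± 0.12), Psmd2 (0.81 ± 0.12) and Psmd1 (0.78 ± 0.12). By limma's adjusted p alone 26 members were higher and 3 lower, the latter being Psmb8 (-0.72 ± 0.08, adjusted p = 7.69e-07), Psme1 (-0.66 ± 0.07, adjusted p = 4.05e-07) and Psmd5 (-0.29 ± 0.10). Of all genes 22.2% were higher and 25.5% lower by adjusted p alone. None of the members was lower by 2-fold, and 3 were lower at an unadjusted p under 0.05. All 6 ATPases, all 3 standard catalytic and all 11 other regulatory subunits lay above 0 and all 5 immune subunits below it. Psmb9 was at -0.02 only, and 0.11 without MF replicate 3. Under other scalings the immune subunits stayed below 0 and the standard ones above it, while Psmd4, Psmd8, Psmd11, Psmd13 and Psmd14 changed sign, as did Psma4, Psmb3, Psmd9, Psmf1 and Psmc3ip. Cell cycle genes were higher in MF as well (10 of 13, median 1.40), and their part in this result was not tested.

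Set directly against MF, GN was higher for Psmb8 by 1.26 ± 0.11 (adjusted p = 1.88e-08) and lower for 17 members, where 6.58% of all genes were higher and 14.1% lower (10.2% and 22.4% of bright genes). The 17 spread over every standard role: 4 chaperones, 6 regulatory subunits, 2 alpha ring, 2 other beta ring, 1 standard catalytic (Psmb6), 1 ATPase (Psmc4) and the inhibitor Psmf1. Psmb9 stood at 0.84 ± 0.16, Psme1 at 0.57 ± 0.09, Psme2 at 0.43 ± 0.14 and Psmb10 at -0.20 ± 0.16, none of them 2-fold.

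In NK 4 of the 5 immune subunits were among the 8 genes lower by adjusted p alone. Psmb9 (-0.95 ± 0.12, adjusted p = 5.75e-06), Psme2 (-0.94 ± 0.11, adjusted p = 1.82e-06), Psmb8 (-0.67 ± 0.08) and Psme1 (-0.45 ± 0.07) lay below the mean of the other 8, as did Psma3 (-0.76 ± 0.11). The rest of the 8 were Psmd7, Psma7 and Psme4, and the standard catalytic genes lay between 0.03 and 0.15. No member passed with a 2-fold difference, against 5.07% of all genes. By limma's adjusted p alone 7 members were higher and 8 lower, against 13.8% and 13.3% of all genes, and at an unadjusted p under 0.05 10 and 12. The 2 NK arrays differed, with Psmb9 at 9.74 and 9.31 and Psme2 at 10.81 and 10.31. Without NK replicate 2 Psmb9 was -1.16 and Psme2 -1.19, and both passed.

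No member passed in the other 6 populations in limma's test with its 2-fold rule, on which 7.72% of all genes passed in DC, 3.70% in T4, 4.43% in T8, 3.91% in NKT, 2.53% in Tgd and 3.73% in Treg. In DC 8 members were higher and 6 lower by adjusted p alone, and 9 and 10 at an unadjusted p under 0.05, where 14.1% of all genes were higher and 19.9% lower by adjusted p alone. The DC values were led by Psmb9 (0.75 ± 0.12, adjusted p = 6.50e-05), Psma3 (0.62 ± 0.11) and Psme2 (0.46 ± 0.11). In T4 11 members and in T8 9 were higher by adjusted p alone and none lower, with 17 and 16 higher at an unadjusted p under 0.05, and 0 and 1 lower. The largest in both was Psmg2, at 0.61 ± 0.10 in T4 and 0.56 ± 0.10 in T8. The mean of the other 8 here includes the low GN mean of Psmg2, 6.39. Its means were alike in T4 (9.19), T8 (9.15), NKT (9.24) and MF (9.09). Of all genes 14.8% were higher by adjusted p alone in T4 and as many in T8, and 12.1% and 15.2% lower. In NKT 1 member was higher (Psmg2, 0.66 ± 0.10) and 4 lower, among them Psma7 (-0.62 ± 0.11) and Psmb9 (-0.60 ± 0.12), by adjusted p alone, with 3 and 10 at an unadjusted p, where 11.2% of all genes were higher and 11.3% lower. In Tgd Psmd5 (0.43 ± 0.10) was higher and 4 were lower, led by Psmb9 (-0.53 ± 0.12), by adjusted p alone, with 6 and 7 at an unadjusted p, where 8.72% of all genes were higher and 9.52% lower. In Treg Psmb8 (0.29 ± 0.08) and Psmf1 (0.33 ± 0.10) were higher and none lower by adjusted p alone, with 5 higher and 0 lower at an unadjusted p, where 20.6% of all genes were past the adjusted p in either direction.

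Differences among the lymphoid populations were under 2-fold for all members but Psme2, and widest for Psme2, Psmb9 and Psmb8. By the F test's adjusted p alone 13 of the 50 members passed, against 5204 of 19752 genes. Among the 13 were 4 of the 5 immune subunits. With the 2-fold rule Psme2 alone passed over the 6 lymphoid populations, with a range of 1.03 (adjusted p = 0.000113), against 9.95% of all genes and 15.6% of bright genes. Psmb9 missed the 2-fold rule with a range of 1.00 (adjusted p = 0.000128). Psmb8 and Psme1 ranged over 0.86 and 0.65 (adjusted p = 6.11e-05 and 0.000338). In each of these 4 genes NK was the lowest lymphoid population. The median range was 0.86 for the 5 immune subunits, 0.24 for the 3 standard ones, 0.35 for all members, 0.33 for all genes and 0.43 for bright genes. Without NK replicate 3, or without T8 replicate 2, no member passed. With the 3 myeloid populations set against the 6 lymphoid ones, none of the members was higher and Psmg2 was lower (-1.01 ± 0.07, adjusted p = 4.30e-10), against 6.39% of all genes higher and 4.41% lower. By adjusted p alone 10 were higher, led by Psmb9 at 0.74 ± 0.08, and 20 lower, against 51.9% of all genes in either direction, with 10 and 21 at an unadjusted p under 0.05. Psmg2 was -0.93 with equal 75th percentiles, under 2-fold. Its call also ended without GN replicate 2 (-0.959), NKT replicate 2 (-0.995), T4 replicate 2 (-0.979), Tgd replicate 3 (-0.985) or Treg replicate 3 (-0.996).

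Other genes of the pathway were followed in lists chosen with earlier results of these data known. Of 22 measured proteasome partners, such as shuttle receptors and deubiquitinases, 13 passed across the 9 populations and 0 within the 6 lymphoid ones. Beside this and the next lists stand the shares given above, 39.0% of all and 60.3% of bright genes across the 9 and 9.95% and 15.6% within the 6. Their median in GN was -0.52, with 5 lower and 3 higher. Ide, an insulin-degrading protease, ranged over 3.47 and Usp14, a deubiquitinase of the regulatory particle, over 2.67, both lowest in GN. Lap3, an aminopeptidase, ranged over 2.25, with a mean of 9.78 in MF, 9.73 in DC and at most 8.21 in the others. Nfe2l2, a stress factor, was highest in GN at 11.68 ± 0.03 (range 2.08).

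Of 13 measured class I presentation genes 11 passed across the 9 populations and 3 within the lymphoid ones. Those 3, named after their values were seen, were Tap1, Tap2 and Nlrc5, with ranges over all 9 of 1.59, 1.31 and 1.29. The widest were H2-M3 (2.40, highest in DC), the chaperones Pdia3 (2.18) and Canx (2.06), both highest in MF and lowest in GN, and H2-Q4 (2.00, highest in Treg and lowest in MF). H2-Q4 belongs to a family of near-identical genes, so its probe set may read several of them. Of 11 measured genes of IFNg signalling 10 passed over the 9 and 8 over the 6 lymphoid populations. Their median was -0.83 in NK, with 4 lower and 1 higher, and -0.63 in NKT, with 5 lower. Ifngr2, a chain of the IFNg receptor, ranged over 4.29, from 7.16 ± 0.25 in NK to 11.45 ± 0.06 in GN. Socs3 and Socs1, inhibitors of the pathway, ranged over 3.81 and 2.75, and the transcription factor Irf8 over 3.45.

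Among genes past the test over the 9 populations, those whose 9 means were most like Psmb9 were Slc39a11 (Pearson's r 0.96), Il4ra (0.94), Stat2 (0.94), Cd274 (0.92) and Gdap10 (0.92). Each was highest in GN and lowest in NK, as Psmb9 was. The most like Psmb5 were Llph (0.98), Mrpl32 (0.97), Otud6b (0.97), Eif2s2 (0.97) and Cab39l (0.97), all highest in MF and lowest in GN. Of the members, Psmc5 (0.94), Psmb2 (0.93), Psmd12 (0.93) and Psmb6 (0.92) were nearest to Psmb5, and Psmb8 lay farthest from it at -0.73. These are descriptions over 9 means that share arrays and scaling.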

How the data were processed

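The deposited table holds 1 linear intensity per probe set and array. The authors' tools for these intensity values were RMA and Affymetrix Power Tools, per the submitters' processing notes. Versions, and whether all arrays were normalized together, are not given in the sources used here. Arrays were grouped by title. Here log2 was taken of the 24922 probe sets, and 21425 with 1 gene symbol in GEO's platform annotation were named, with symbols updated through Entrez numbers against RefSeq (GRCm38.p6; 21347 matched), while 1399 had several symbols and 2098 none. The brightest probe set stood for each of the 921 genes with more than 1, which left 19752 genes.

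Tests were run in R 4.3.3 with limma 3.58.1: a mean was fitted for each population over all 18 arrays (lmFit, contrasts.fit and a trended eBayes), with 9 residual and 7.69 prior degrees of freedom, Benjamini-Hochberg adjustment over all genes, and at least 2-fold. Contrasts against the other 8 share arrays and were not compared with each other. Scripts were tested on simulated data. Pair differences used an exact permutation test. Folds of dim genes may be understated after RMA.

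The members, gene lists and tests were chosen with earlier results of these data known. Named were the immune and standard catalytic subunits, other activators, the inhibitor, core chaperones and tissue forms, the 10 other members with the largest and the 5 with the smallest range, the members past each contrast (up to 6 by size), the 5 genes most like Psmb9 and Psmb5, and the 4 widest of each list. Other genes were named after their values were seen. Alternatives were eBayes without trend, quantile normalization, median centring, bright genes only, the mean of a gene's probe sets, array weights, the replicate number as a block, a 1.5-fold threshold, each array left out, and, chosen after seeing the data, equal 75th percentiles.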

Additional observations from a re-analysis of the deposited data

How the results depend on the processing

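No alternative reversed a called value, while values near 0 changed sign with the scaling as given above. With the 1.5-fold threshold 10 members passed over the 6 lymphoid populations (20.4% of all genes), 1 was higher (10.5%) and 3 were lower (11.3%) in myeloid than lymphoid populations, and against the other 8 populations 2 passed in DC (14.6% of all genes), 27 in GN (30.4%), 12 in MF (4348 of 19752 genes), 4 in NK (11.4%), 3 in NKT (9.19%) and 1 in T4 (9.57%). At that threshold 14 pairs of populations passed for Psmb8, 20 for Psmb9 and 8 each for Psme1 and Psme2. Over all bright genes 27.4% of such tests passed. With equal 75th percentiles 2 members passed over the lymphoid populations, 0 were lower in myeloid ones, 7 passed in GN, 0 in MF and 1 in NK, as did 10 pairs for Psmb9 and 1 for Psme1. Of the 19752 genes 1977 were then higher and 1486 lower in GN, 1261 and 1085 in MF, and 448 and 575 in NK. Quantile normalization gave 2 members over the lymphoid populations and a myeloid minus lymphoid difference of -0.57 for Psmb10 minus Psmb7 (exact permutation, adjusted p = 0.0357). For these moves the cause was not tested, apart from the lower threshold, which passes more genes by construction.

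The labels do not say that a replicate number marks arrays made together, and the numbers were not taken as pairs: the correlation of the deviations of same-numbered arrays lay between -0.16 and 0.47, with 8 of 18 comparisons over 0.1. Of the 18 arrays 14 were closest to their own number, a hint of pairing from the data and not from the design. With the replicate number as a block 3 members passed in MF in place of 1, and the block moved no other count by over 1.5 times.

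Leaving out each array in turn gave 25 to 28 members over the 9 populations, 0 to 2 over the lymphoid ones, 0 to 1 lower in myeloid populations, 10 to 12 in GN, 1 to 3 in MF, 0 to 2 in NK, 5 to 10 pairs for Psmb9 and 0 to 6 for Psme2. NK replicate 2 (10 and 6 pairs without it) and NK replicate 3 (0 pairs for Psme2 without it) decided the last of these. The myeloid minus lymphoid difference lay between 0.07 and 0.13 for Psmb8 minus Psmb5, 0.91 and 1.01 for Psmb9 minus Psmb6, and -0.40 and -0.26 for Psmb10 minus Psmb7. In MF 3 members passed without MF replicate 3, NK replicate 2 or NKT replicate 2, and 2 without GN replicate 1, T8 replicate 2, Tgd replicate 3 or Treg replicate 2. Over the lymphoid populations 2 passed without NK replicate 2, T4 replicate 2, T8 replicate 3 or Treg replicate 3. With 2 arrays per population, a population left with 1 array was assumed to vary like the others. The table gives no background per probe set, so the limit of detection is unknown.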

Other observations

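A probe set annotated to both Psme2b and Psme2 was left out of the 50 genes because it carries 2 symbols. Its log2 intensity ran from 9.92 ± 0.31 (SD, n = 2) in NK to 11.92 ± 0.001 in GN, a range of 2.00, wider than the 1.24 of the Psme2 probe set. DC stood at 11.65 ± 0.12 and Treg at 11.38 ± 0.13, with MF at 11.08 ± 0.05, Tgd at 11.04 ± 0.004 and NKT at 10.84 ± 0.11. Its 9 means had a Pearson correlation of 0.95 with those of Psme2. Signal from either gene cannot be told apart on it.

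Some members have a second probe set with the same single symbol. That of Psmc1, an ATPase, was highest in MF and lowest in GN like the one used, but ranged over 1.20 in place of 0.76. The second probe set of Psma5 ranged over 0.79 in place of 0.98, and in GN its difference from the other populations was 0.10 in place of -0.09. For Psmb3 and Psmd2 both probe sets had their highest and lowest means in the same populations.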
